A study of Mus musculus with 24 samples.

Results

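The 10 cardiac transcription factors Mef2a, Mef2c, Mef2d, Srf, Gata4, Gata6, Nkx2-5, Hand2, Tbx5 and Tbx20 were followed across left ventricles with and without a cardiac knockout of the prostaglandin receptor EP4. The genes were chosen by name, and every probe assigned to one of them by the platform annotation or by the authors' summary table was taken, which gave 22 of the 45281 probes on the array. Of these, 20 lay among the 25425 probes kept for testing, which exceeded their array's median (6.77 on the log2 scale) on at least 6 of 24 arrays, and each of the 10 genes had a kept probe. The 2 probes not kept were Mef2c ILMN_2520812, at 5.91 to 6.31 in KO low EF, 5.98 to 6.24 in KO high EF and 5.93 to 6.46 in WT hearts, and Tbx5 ILMN_2604948, at 6.21 to 6.73, 6.36 to 6.62 and 6.29 to 6.83 in the same groups. The 3 Mef2a probes carry that name only in the authors' deposited table. It lists ILMN_1251160 under another transcript than ILMN_1248647 and ILMN_1221253. Whether the 3 probes read the same gene was not tested.

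Each of 24 arrays held left ventricular RNA of a single male mouse, and the mice had a mixed genetic background. The mice were 6 cardiac-specific EP4 knockouts (KO) labelled low ejection fraction (EF, 13.7 to 34%) and 7 labelled high EF (45.9 to 76.4%), and 11 wild-type controls (WT, 71.4 to 86.1%). EP4, encoded by Ptger4, is a receptor for prostaglandin E2. Which promoter drove the recombinase was not stated in the sources used here, nor whether WT mice carried that transgene. The mice were 27 to 33.5 weeks old in both KO groups and 27 to 33 weeks old in WT. A level is the normalized log2 intensity of 1 probe, and it compares the same probe between hearts only, since probes differ in brightness.

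As background, these factors form the core network that specifies heart muscle in the embryo and keeps its gene programme running in the adult. They bind next to each other on the same cardiac genes and act jointly: MEF2 proteins read an A/T-rich site, SRF reads the CArG box and recruits myocardin-family partners, GATA factors read a GATA core, NKX2-5 is a homeodomain protein, TBX5 and TBX20 read T-box sites, and HAND2 is a basic helix-loop-helix protein. MEF2 activity is held down by class II histone deacetylases and released by calcium/calmodulin kinases, and SRF, GATA4 and MEF2 have been tied to hypertrophic growth and the fetal gene programme of stressed hearts.

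Promoters are shown for Mef2a and Mef2c, which with Tbx5 held the called group differences, and for Srf, whose window holds the site that SRF itself reads. RefSeq windows of 300 bases (250 before and 50 after the annotated start, GRCm38.p6) were on hand for 7 of the 10 genes, 9 windows in all, and Gata4, Gata6 and Tbx5 were not among them. Motifs were searched on both strands in all 32851 mouse windows, and capitals mark the matches. The Mef2a window (chr7:67372809-67373108, minus strand) holds 1 MEF2 match (CTA and TAG with any 4 bases between), which lies across the annotated start; 3.69% of all windows hold one. The Srf window (chr17:46556113-46556412, minus strand) holds 2 CArG boxes, a motif present in 1.63% of all windows. The 3 Mef2c windows (chr13:83503784-83504083, chr13:83523406-83523705 and chr13:83573357-83573656, plus strand) hold no match to any motif searched. The Hand2 window holds 2 GATA matches (the letters GATA after A or T and before A or G, found in 29.8% of windows), and no member window holds TNAAGTG for NKX2-5 (11.5% of windows) or GGTGTGA for T-box proteins (3.98%). None of the 3 matches in capitals shares a base with another, and a match describes the letters only.
Mef2a: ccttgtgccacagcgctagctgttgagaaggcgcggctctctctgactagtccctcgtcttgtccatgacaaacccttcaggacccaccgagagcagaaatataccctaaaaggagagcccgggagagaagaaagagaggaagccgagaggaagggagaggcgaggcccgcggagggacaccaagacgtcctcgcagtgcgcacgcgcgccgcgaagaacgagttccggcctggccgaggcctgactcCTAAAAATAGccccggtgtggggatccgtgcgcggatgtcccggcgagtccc
Mef2c window 1: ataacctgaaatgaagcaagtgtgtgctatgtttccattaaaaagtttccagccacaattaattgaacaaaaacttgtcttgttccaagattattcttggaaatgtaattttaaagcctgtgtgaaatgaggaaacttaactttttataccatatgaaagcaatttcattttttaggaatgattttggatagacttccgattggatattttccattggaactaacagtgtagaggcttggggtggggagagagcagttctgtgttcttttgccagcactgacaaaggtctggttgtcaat
Mef2c window 2: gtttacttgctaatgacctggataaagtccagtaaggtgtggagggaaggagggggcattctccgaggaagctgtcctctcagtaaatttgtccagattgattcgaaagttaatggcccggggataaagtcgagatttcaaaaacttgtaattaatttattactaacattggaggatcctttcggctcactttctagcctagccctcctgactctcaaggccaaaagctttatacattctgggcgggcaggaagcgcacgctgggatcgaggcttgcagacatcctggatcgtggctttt
Mef2c window 3: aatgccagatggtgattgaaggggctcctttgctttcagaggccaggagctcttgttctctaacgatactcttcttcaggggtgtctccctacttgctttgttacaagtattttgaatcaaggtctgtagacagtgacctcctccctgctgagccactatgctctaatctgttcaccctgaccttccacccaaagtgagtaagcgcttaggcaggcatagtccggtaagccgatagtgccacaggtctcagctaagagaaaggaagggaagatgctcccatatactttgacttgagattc
Srf: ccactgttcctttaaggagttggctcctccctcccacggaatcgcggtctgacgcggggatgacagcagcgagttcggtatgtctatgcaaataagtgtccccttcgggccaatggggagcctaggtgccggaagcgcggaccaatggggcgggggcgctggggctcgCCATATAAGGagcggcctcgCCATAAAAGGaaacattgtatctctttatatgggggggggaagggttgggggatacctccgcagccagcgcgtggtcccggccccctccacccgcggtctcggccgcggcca

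Of the 24 arrays, 1 stood apart. KO high EF replicate 11 had a median correlation of 0.778 with the other arrays, against 0.968 to 0.986 for the 23 others, and values that it moved most are also given without it. For cardiomyocyte markers, with Tnnt2 not analysed here, the summed normalized level of 9 markers ran from 362871 to 384868 in KO low EF, from 357379 to 387901 in KO high EF and from 377860 to 415485 in WT hearts. The 10 fibroblast markers summed to 57593 to 86608 in KO low EF, 54536 to 75721 in KO high EF and 38303 to 47355 in WT hearts, and the 9 macrophage markers to 24633 to 31069, 20298 to 29932 and 10222 to 14547. Both KO groups thus lay above WT for both lists. In bulk tissue, fewer cells of a type and less RNA per cell cannot be told apart, and the part of these cell types in the differences below was not tested.

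**Figure D1:**
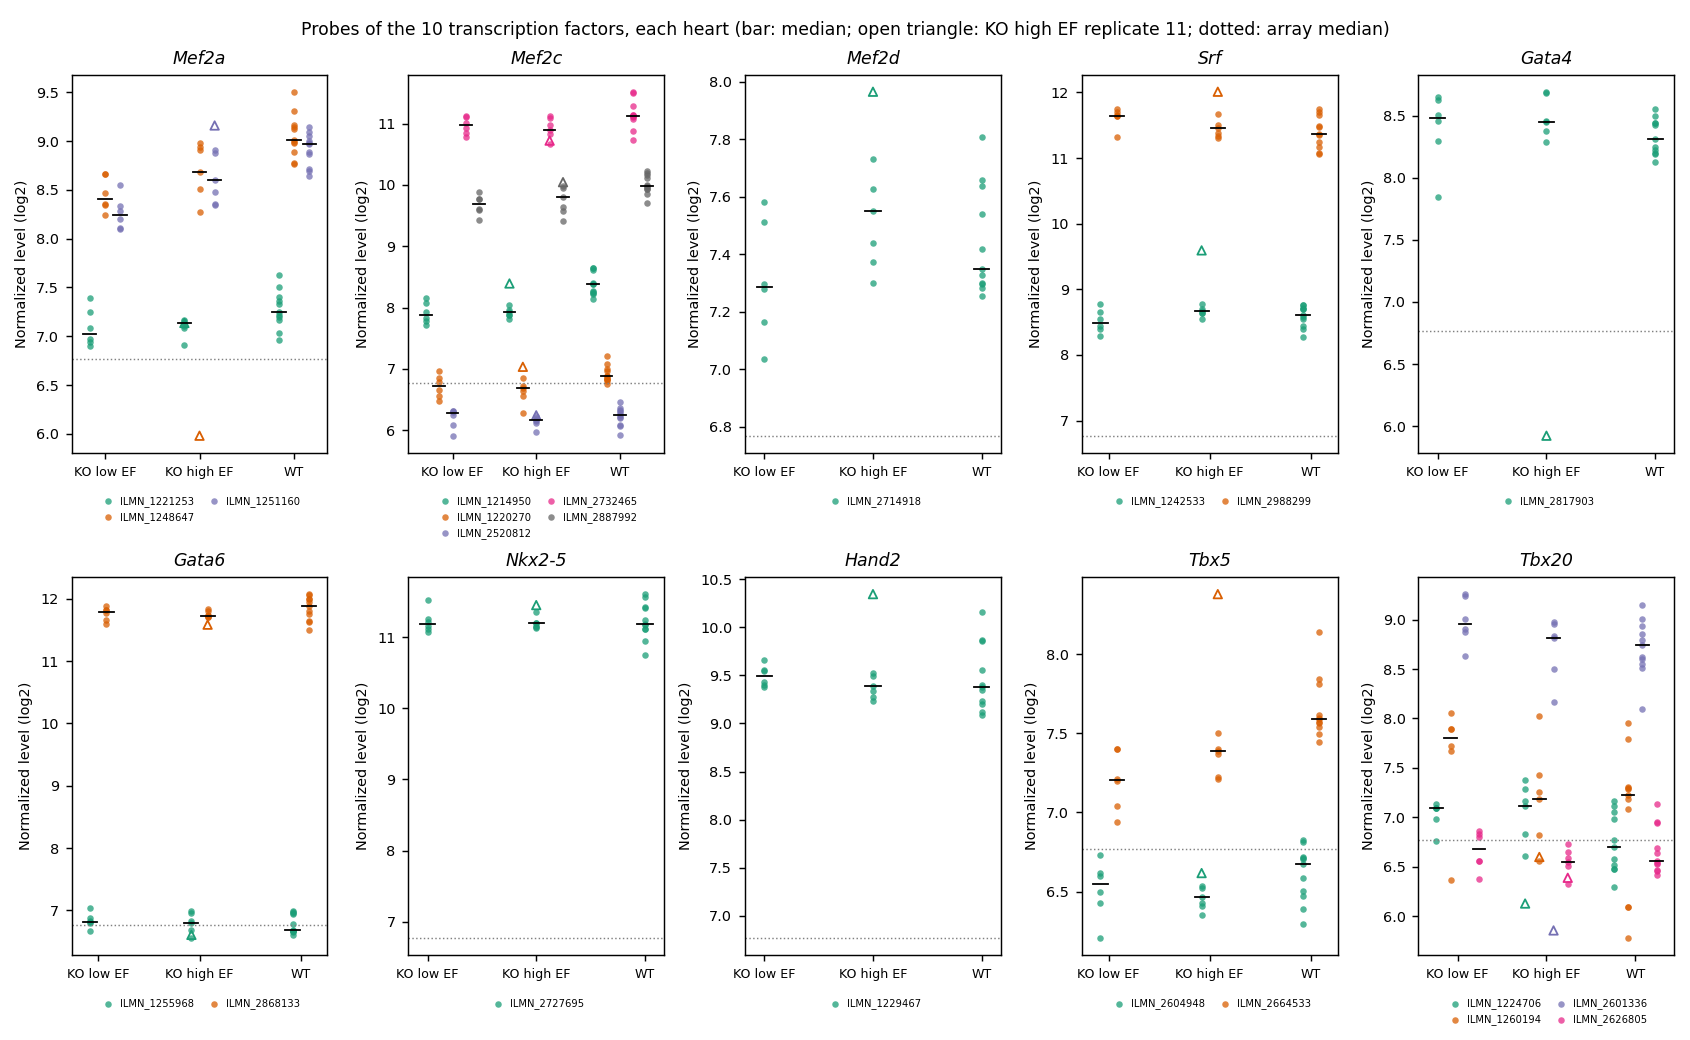
Normalized log2 level (y axis) of all 22 probes of the 10 genes in each heart, by group (KO low EF, KO high EF, WT; x axis), 1 colour per probe. Bars are group medians, open triangles are KO high EF replicate 11 and dotted lines mark the array median of 6.77; the 2 brighter Mef2a probes and the brighter Tbx5 probe are lower in all 6 KO low EF hearts than in any WT heart.

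Against WT, KO low EF hearts had lower levels of Mef2a, Mef2c and Tbx5, while no probe of the 10 genes rose with all arrays. Of the 20 member probes, 0 were higher and 4 were lower (limma, Benjamini-Hochberg over all kept probes, adjusted p under 0.05), which is 20% of them against 24.4% of all kept probes in either direction and 12.3% in the lower direction. The share called in either direction was thus near the background. Without KO high EF replicate 11, 5 were lower, against 33.8% of all probes then tested in either direction (4344 of 25144 were lower). The members' median difference was -0.08 on the log2 scale, against -0.01 over all kept probes. The 4 probes comprised 1 of Mef2a, 2 of Mef2c and 1 of Tbx5. Levels did not overlap between the groups for 3 member probes, all lower in KO low EF, while 6.16% of all kept probes were lower without overlap.

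Mef2a, a main MEF2 factor of the adult heart, showed the largest called fall among the members. Its probe ILMN_1251160 ran from 8.10 through a median of 8.24 to 8.55 in KO low EF hearts, against 8.64, 8.97 and 9.14 in WT hearts. All 6 KO low EF hearts lay below all 11 WT hearts. The difference was -0.65 ± 0.11 (SE, n = 6 and 11; 1.57-fold lower, limma adjusted p = 5.98e-05), and within the 3 chips that held both groups it was -0.58 to -0.48.

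The second bright Mef2a probe, ILMN_1248647, ran from 8.24 through 8.41 to 8.67 in KO low EF hearts, against 8.76, 9.01 and 9.51 in WT hearts. These groups did not overlap either, yet the difference of -0.61 ± 0.28 missed the threshold (limma adjusted p = 0.137) because the spread is shared with KO high EF, where replicate 11 read 5.98. Without that array the difference was -0.61 ± 0.11 (limma adjusted p = 7.78e-05). The dim Mef2a probe ILMN_1221253 was at 6.90 to 7.39 in KO low EF and 6.97 to 7.63 in WT hearts and was not called (-0.19 ± 0.09, limma adjusted p = 0.147). The authors' deposited table gives p = 2.96e-05, 0.00450 and 0.0506 over the 3 groups for these 3 probes in the order given.

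Mef2c, needed for heart looping in the mouse embryo, fell on 2 of its 4 kept probes. ILMN_1214950 measured 7.71, 7.88 and 8.16 (lowest, median and highest) in KO low EF hearts, against 8.15, 8.38 and 8.65 in WT hearts. The groups met only at their edges, and the difference was -0.47 ± 0.09 (1.38-fold lower, limma adjusted p = 0.000440; -0.40 to -0.30 within chips). ILMN_2887992 measured 9.43, 9.69 and 9.89 in KO low EF hearts, against 9.70, 9.98 and 10.22 in WT hearts, a difference of -0.33 ± 0.10 (limma adjusted p = 0.0113). That call was lost with the chip as a block (-0.28, adjusted p = 0.0696) and with median scaling in place of quantile normalization (-0.20, adjusted p = 0.463). The remaining kept Mef2c probes were also below WT without passing the test, ILMN_1220270 by -0.20 (adjusted p = 0.139) and the brightest, ILMN_2732465, by -0.18 (adjusted p = 0.221).

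Mef2d, the third MEF2 member, differed by -0.13 ± 0.10 (limma adjusted p = 0.447) and ran from 7.04 through 7.29 to 7.58 in KO low EF hearts, against 7.25, 7.35 and 7.81 in WT hearts. Srf, the CArG-box factor, gave differences of opposite sign on its 2 probes, neither called. The dimmer, ILMN_1242533, differed by -0.07 ± 0.12 (adjusted p = 0.767), and the brighter, ILMN_2988299, by 0.22 ± 0.11 (limma adjusted p = 0.178) with 11.31 to 11.75 in KO low EF and 11.06 to 11.75 in WT hearts. The sign of ILMN_1242533 turned to 0.07 under median scaling and to 0.03 with the chip as a block.

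The GATA factors, Nkx2-5 and Hand2 showed no called difference in KO low EF hearts. Gata4, a driver of hypertrophic gene expression, measured 7.85, 8.48 and 8.65 in KO low EF hearts, against 8.13, 8.32 and 8.55 in WT hearts, a difference of 0.06 with a 95% interval of -0.48 to 0.61. Without KO high EF replicate 11, whose Gata4 level was 5.92, the SE of that difference shrank to 0.10 and its size stayed at 0.06. Gata6, its close relative, differed by -0.09 ± 0.08 on the bright probe ILMN_2868133 and by 0.05 ± 0.08 on ILMN_1255968, which sits near the array median. Nkx2-5, the homeodomain factor of heart muscle and conduction tissue, measured 11.08, 11.18 and 11.52 in KO low EF hearts, against 10.75, 11.18 and 11.61 in WT hearts. Its difference was -0.01 with a 95% interval of -0.22 to 0.21. Hand2, known for right ventricular growth in the embryo, differed by 0.02 with an interval of -0.30 to 0.34.

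Among T-box factors, Tbx5 fell. Tbx5, which patterns the left ventricle and atria and whose human gene is mutated in Holt-Oram syndrome, measured 6.94, 7.21 and 7.40 on ILMN_2664533 in KO low EF hearts, against 7.44, 7.59 and 8.14 in WT hearts. The groups were separated by a narrow gap, and the difference was -0.46 ± 0.13 (1.37-fold lower, limma adjusted p = 0.0122; -0.42 to -0.32 within chips). With the chip as a block it was -0.38 and not called (adjusted p = 0.0753). Over the 38 alternatives the Tbx5 difference ran from -0.57 to -0.18 and was called in 37. The probe is dim, with KO low EF levels not far above the array median of 6.77. Tbx20, a T-box factor that adult mouse cardiomyocytes need to keep contracting, gave 0.59 ± 0.30, 0.29 ± 0.16, 0.27 ± 0.30 and -0.00 ± 0.10 on its 4 probes, none called (limma adjusted p = 0.182, 0.211, 0.631 and 0.995). The largest of these, ILMN_1260194, spread over 6.36 to 8.06 in KO low EF and 5.78 to 7.95 in WT hearts, and its within-chip values ran from -0.38 to 1.98. Without KO low EF replicate 6, at 6.36, this probe was called higher (0.84, limma adjusted p = 0.0406), as it was with the replicate block (0.89, adjusted p = 0.00395). Tbx20 ILMN_2601336 was called higher when KO high EF replicate 11 was left out and the chip was a block (0.44, adjusted p = 0.00329).

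**Figure D2:**
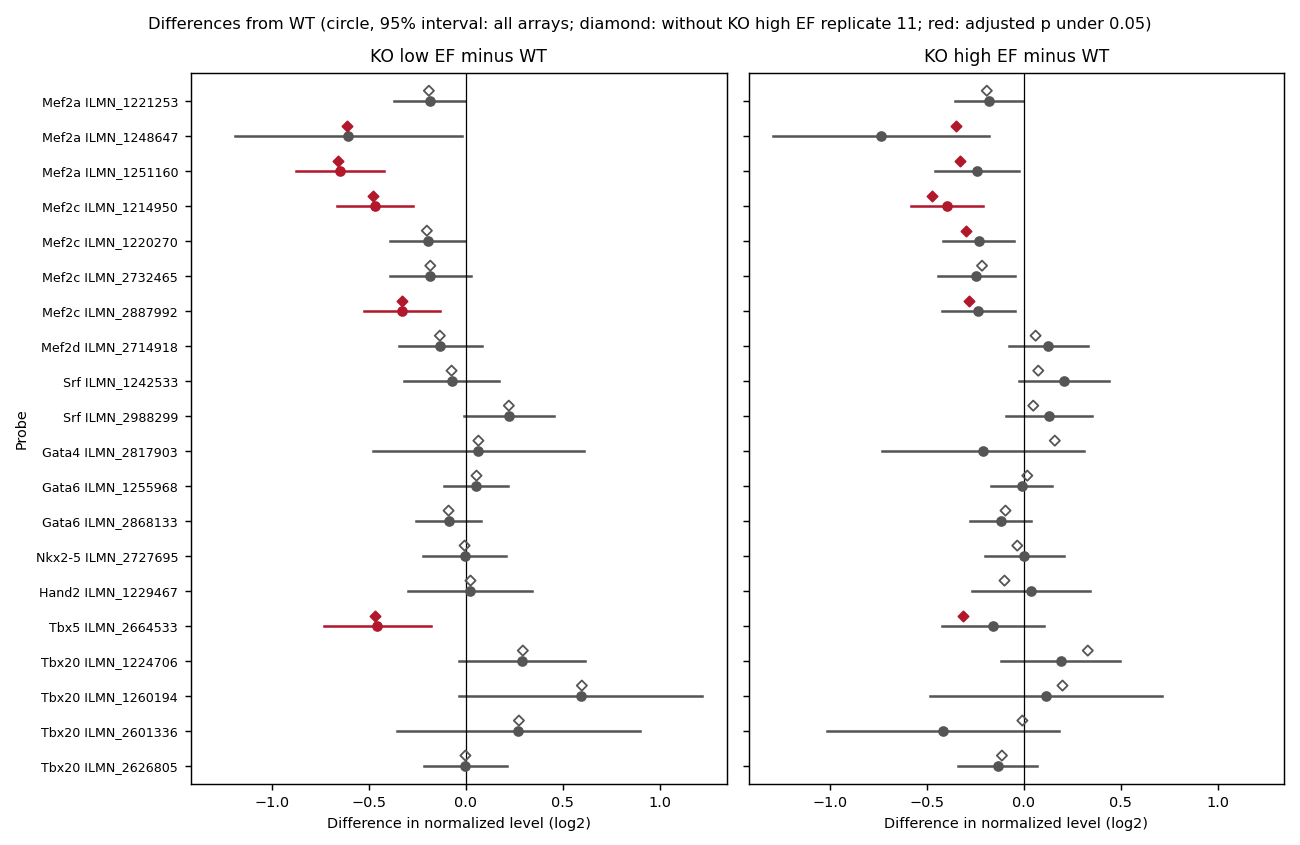
Difference in normalized level on the log2 scale (x axis) for the 20 kept member probes (y axis), for KO low EF minus WT (left) and KO high EF minus WT (right). Circles with 95% intervals use all 24 arrays, diamonds leave out KO high EF replicate 11 and red marks an adjusted p under 0.05; 4 circles are red at left and 1 at right, against 5 and 6 red diamonds.

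KO high EF hearts, compared with the same WT hearts, had lower Mef2c on 1 probe, and further calls came and went with the arrays and settings used. With all arrays, 0 member probes were higher and 1 was lower, or 5% of 20, against 14.4% of all kept probes in either direction and 5.9% in the lower direction. Mef2c ILMN_1214950 measured 7.81, 7.93 and 8.39 in KO high EF hearts, against 8.15, 8.38 and 8.65 in WT hearts. The 8.39 belonged to replicate 11, and the 6 other KO high EF hearts, up to 8.05, lay below every WT heart. The difference was -0.40 ± 0.09 (n = 7 and 11, 1.32-fold lower, limma adjusted p = 0.00311) and -0.47 without replicate 11 (adjusted p = 0.000173).

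Without replicate 11, 19% of the 25144 probes then tested were called in either direction, 2406 of them lower. Of the member probes, 0 were then higher and 6 were lower. They were Mef2a ILMN_1248647 (-0.35 ± 0.11, limma adjusted p = 0.0287) and ILMN_1251160 (-0.33 ± 0.10, adjusted p = 0.0169), Mef2c ILMN_1214950, ILMN_1220270 (-0.30 ± 0.09, adjusted p = 0.0147) and ILMN_2887992 (-0.28 ± 0.09, adjusted p = 0.0288), and Tbx5 ILMN_2664533 (-0.31 ± 0.09, adjusted p = 0.0158). With all arrays the Tbx5 difference was -0.16 ± 0.13 (limma adjusted p = 0.441), since replicate 11 read 8.38 where the other KO high EF hearts read 7.21 to 7.50. The same array read both extremes for Mef2a, 5.98 on ILMN_1248647 and 9.16 on ILMN_1251160, against 8.28 to 8.98 and 8.34 to 8.91 in the other KO high EF hearts. With that array kept, ILMN_1248647 was called on the authors' normalized table (-0.37, limma adjusted p = 0.0360), with age as a covariate (-0.84, adjusted p = 0.0287) and without KO high EF replicate 13 (-0.84, adjusted p = 0.0450), and ILMN_1251160 with the chip as a block (-0.24, adjusted p = 0.0458). Without WT replicate 8, Mef2c ILMN_2732465 (-0.29, adjusted p = 0.0341) and ILMN_2887992 (-0.26, adjusted p = 0.0496) were called.

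Members other than Mef2a, Mef2c and Tbx5 were not called in KO high EF hearts with or without that array, though array weights called Tbx20 ILMN_1224706 higher (0.32, limma adjusted p = 0.0436). Nkx2-5 measured 11.13, 11.20 and 11.45 in KO high EF hearts, against 10.75, 11.18 and 11.61 in WT hearts, a difference of 0.00 with a 95% interval of -0.20 to 0.21. Gata4 differed by -0.21 ± 0.25 with all arrays and by 0.16 ± 0.10 without replicate 11 (limma adjusted p = 0.301). Mef2d and the Srf probes ILMN_1242533 and ILMN_2988299 lay 0.13, 0.21 and 0.13 above WT with all arrays, and 0.06, 0.08 and 0.05 above WT without replicate 11. Tbx20 ILMN_1224706 was 0.33 ± 0.13 above WT without replicate 11 (adjusted p = 0.0726).

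Between the KO groups, KO low EF minus KO high EF, 0 of the 20 member probes passed in limma, 3 had an unadjusted p under 0.05, and 2.92% of all kept probes passed. Without replicate 11 the members' count was again 0, against 4.29%. EF defined the KO groups, so this contrast and the slope on EF are 2 readings of one ordering of hearts. Mef2a ILMN_1251160 came closest, with 8.10, 8.24 and 8.55 in KO low EF hearts and 8.34, 8.60 and 9.16 in KO high EF hearts (-0.41 ± 0.12, limma adjusted p = 0.0660). Within the 3 chips that held both KO groups, the difference on this probe was -0.23 to -0.14. Chip 4 held 3 KO high EF hearts and no KO low EF heart. For this probe the order of group levels was KO low EF, KO high EF and WT from low to high, and with all arrays the ends of that order differed past the threshold while neighbours did not. KO low EF against KO high EF passed in 5 of 38 alternatives: with array weights (-0.42, adjusted p = 0.0104) and without KO low EF replicate 6 or KO high EF replicate 8, 9 or 10 (-0.47, -0.44, -0.47 and -0.46, adjusted p = 0.0380, 0.0432, 0.0402 and 0.0456). KO high EF against WT passed in 4 of 38. Mef2c ILMN_1214950 differed by -0.07 between the KO groups with a 95% interval of -0.28 to 0.14. Mef2d (-0.26 ± 0.11, adjusted p = 0.287) and Srf ILMN_1242533 (-0.28 ± 0.13, adjusted p = 0.318) were the other 2 with an unadjusted p under 0.05. Without KO high EF replicate 11 these differences were -0.20 and -0.15 (adjusted p = 0.417 and 0.484).

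When the mean of both KO groups was set against WT, 0 member probes were higher and 6 were lower, or 30% of 20, against 25.4% of all kept probes in either direction and 12.3% in the lower direction. The 6 belonged to the same 3 genes: Mef2a ILMN_1248647 (-0.67 ± 0.23, limma adjusted p = 0.0326) and ILMN_1251160 (-0.45 ± 0.09, adjusted p = 0.000403), Mef2c ILMN_1214950 (-0.43 ± 0.08, adjusted p = 9.7e-05), ILMN_1220270 (-0.21 ± 0.08, adjusted p = 0.0365) and ILMN_2887992 (-0.28 ± 0.08, adjusted p = 0.00731), and Tbx5 ILMN_2664533 (-0.31 ± 0.11, adjusted p = 0.0370). The -0.67 on ILMN_1248647 includes KO high EF replicate 11 at 5.98. Without that array this probe differed from WT by -0.61 in KO low EF and by -0.35 in KO high EF hearts. Mef2a ILMN_1251160 and Mef2c ILMN_1214950 passed in 38 of 38 alternatives, Mef2c ILMN_2887992 in 36 and Mef2a ILMN_1248647 in 32, whereas Tbx5 passed in 23 of 38 and Mef2c ILMN_1220270 in 22 of 37. The Tbx5 call was lost in the chip-block fit (-0.28, adjusted p = 0.0925) and without any 1 of 10 single arrays (WT replicates 3, 10 and 11, KO low EF 2 and 5, KO high EF 7, 8, 9, 12 and 13), with the highest adjusted p, 0.0744, without WT replicate 10. Tbx5 was also not called on the authors' normalized table (-0.12, limma adjusted p = 0.0841), with age as a covariate (-0.27, adjusted p = 0.0637), without the filter or with KO hearts fitted as 1 group. The ILMN_1220270 call was lost in the chip-block fit (-0.16, adjusted p = 0.139) and without any 1 of 9 (WT 1, 2, 9 and 11, KO low EF 1, 2 and 6, KO high EF 10 and 13), with the highest, 0.0689, without WT replicate 1. It was also lost on the authors' table (-0.06, limma adjusted p = 0.0511), with the replicate block (-0.18, adjusted p = 0.121), under median scaling, without the filter and with age. This probe lies near the array median of 6.77, with medians of 6.72, 6.69 and 6.88 in KO low EF, KO high EF and WT hearts. The ILMN_1248647 call was lost in the chip-block fit (adjusted p = 0.0590) and without WT replicate 3 or 7 or KO low EF replicate 5 (adjusted p = 0.0591, 0.0523 and 0.0512). It was also lost under median scaling (-0.59, limma adjusted p = 0.170) and with a background offset of 16 (-0.78, adjusted p = 0.0661). Without KO high EF replicate 11, 1 was higher and 7 were lower, against 34.1% of all probes then tested in either direction (4472 of 25144 were lower). The rise was Tbx20 ILMN_1224706 at 0.31 ± 0.11 (adjusted p = 0.0222), and the added fall was Mef2a ILMN_1221253 at -0.19 ± 0.07 (adjusted p = 0.04997, at the edge of the threshold). Tbx20 ILMN_1224706 had a WT median of 6.70, below the array median.

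EF was also used as a continuous measure within each genotype. Within KO hearts, 1 of 20 member probes, or 5%, rose with EF and 0 fell with it, against 4.38% of all kept probes in either direction and 2.92% that rose. Without replicate 11 the count was again 1, against 6.05%. Mef2a ILMN_1251160 gained 0.134 ± 0.031 log2 units per 10 points of EF (n = 13, limma adjusted p = 0.0121), and 0.113 ± 0.028 without replicate 11 (adjusted p = 0.0145). The call was lost with the chip as a block (0.078, adjusted p = 0.217) and under median scaling (0.081, adjusted p = 0.477). Its partner ILMN_1248647 had a slope of -0.032 ± 0.088 with all arrays and 0.090 ± 0.034 without replicate 11 (limma adjusted p = 0.129). Among KO hearts, the 3 with the highest EF (replicates 11, 12 and 13) were all on chip 4, which held no KO low EF heart. Chip and EF cannot be fully told apart there.

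Mef2d (0.080 ± 0.031, limma adjusted p = 0.164) and Srf ILMN_1242533 (0.097 ± 0.034, adjusted p = 0.121) also had positive slopes within KO that did not pass. Within WT, where EF spans a narrow range, 0 member slopes passed in limma, against 0.00393% of all kept probes, and 3 had an unadjusted p under 0.05. The steepest relative to its error was that of Nkx2-5, at -0.436 ± 0.109 per 10 points (n = 11, limma adjusted p = 0.363), against 0.005 ± 0.025 within KO. The difference between those slopes was 0.441 ± 0.112 (limma adjusted p = 0.470). That test called 0 members, 3 of which had an unadjusted p under 0.05, and 0% of all kept probes. In WT hearts EF also went with age: replicates 1 to 5 were 27 to 30.5 weeks old with EF of 82.1 to 86.1%. Replicates 6 to 11 were 33 weeks old with EF of 71.4 to 81%. High Myl7, given below, was found in WT replicates 8 to 11. EF, age and atrial transcripts cannot be fully told apart in the WT slopes.

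**Figure D3:**
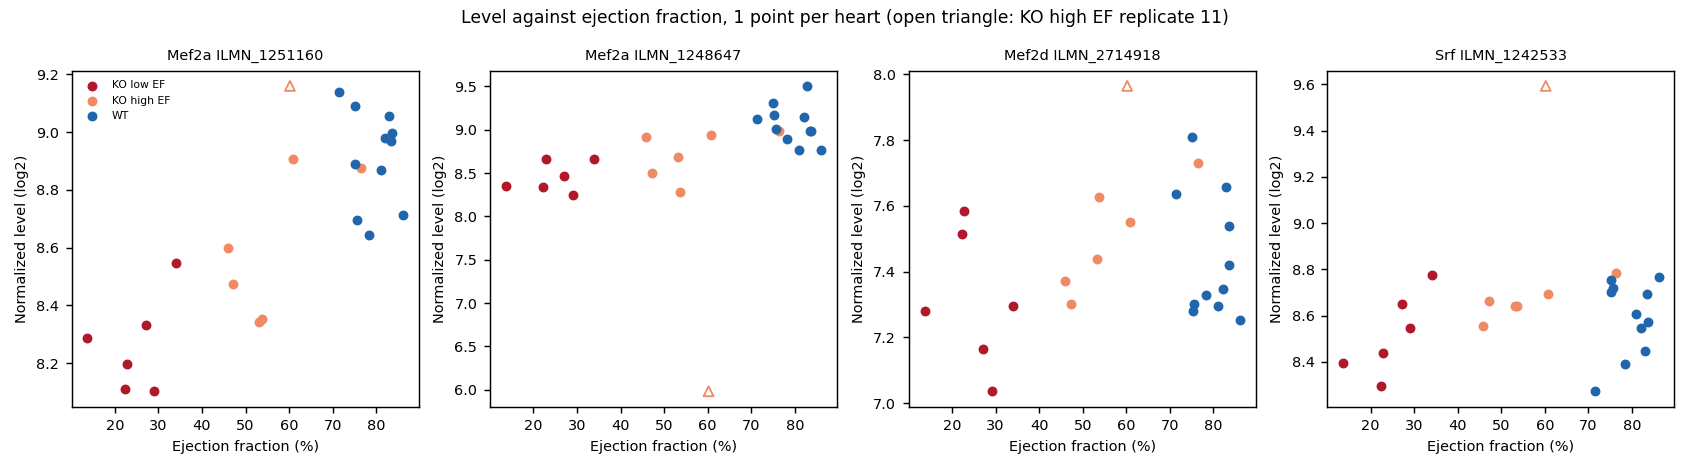
Normalized log2 level (y axis) against ejection fraction in percent (x axis), 1 point per heart, for Mef2a ILMN_1251160 and ILMN_1248647, Mef2d and Srf ILMN_1242533. Open triangles are KO high EF replicate 11; on Mef2a ILMN_1251160 the KO low EF hearts lie at 8.10 to 8.55, the KO high EF hearts at 8.34 to 9.16 and the WT hearts at 8.64 to 9.14.

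Some hearts carried atrial transcripts, and the levels of Hand2, Nkx2-5, Gata6 and Tbx5 are given beside them. Myl7, the atrial myosin light chain, was above 8 on 5 of 24 arrays, 1 KO high EF (replicate 11, at 10.23) and 4 WT (9.82 to 12.52), and at most 7.00 on the others. Myl4 was highest on the same 5 arrays, at 11.59 in KO high EF replicate 11 and 11.60 to 14.15 in the 4 WT hearts. On the other arrays Myl4 was also higher in KO than in WT hearts. It was at 9.15 to 9.34 in KO low EF, 8.70 to 9.21 in KO high EF and 7.61 to 8.56 in WT. Sarcolipin (Sln) was high in the 4 WT hearts (9.28 to 12.66) and at 5.83 in KO high EF replicate 11. Bmp10 had no kept probe, and of the 6 kept atrial markers 1 was higher in KO low EF hearts than in WT (Dkk3, 2.09, limma adjusted p = 0.00266) and 0 were called in KO high EF. The summed level of the 6 was 3465 to 6317 in KO low EF, 2315 to 6730 in KO high EF and 1510 to 34916 in WT hearts.

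Hand2 was at 10.34 in KO high EF replicate 11, against 9.23 to 9.53 in the 6 other KO high EF hearts. In WT it was at 9.35 to 10.15 in the 4 hearts with high Myl7 and at 9.09 to 9.56 in the other 7. Over the 11 WT hearts, as a description, the level of Myl4 correlated with Hand2 (r = 0.73), Gata6 ILMN_2868133 (r = 0.65), Nkx2-5 (r = 0.63) and Tbx5 (r = 0.55), and with Mef2a ILMN_1251160 at r = 0.01. The points share arrays and normalization, and the 4 high hearts form a cluster of their own.

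With the 5 arrays left out, these probes were again lower in KO low EF hearts: -0.66 on Mef2a ILMN_1251160, -0.48 on Mef2c ILMN_1214950 and -0.41 on Tbx5 (limma adjusted p = 4.09e-05, 0.000280 and 0.000637). The Hand2 difference then became 0.21 ± 0.08 (limma adjusted p = 0.0531), against 0.02 ± 0.16 with all arrays. Member calls were 5 in KO low EF, 6 in KO high EF and 7 over all KO hearts, all of them lower. Of the 24427 probes then tested, 31.9%, 16.8% and 30.4% were called in either direction, and 3944, 2005 and 3814 were lower.

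**Figure D4:**
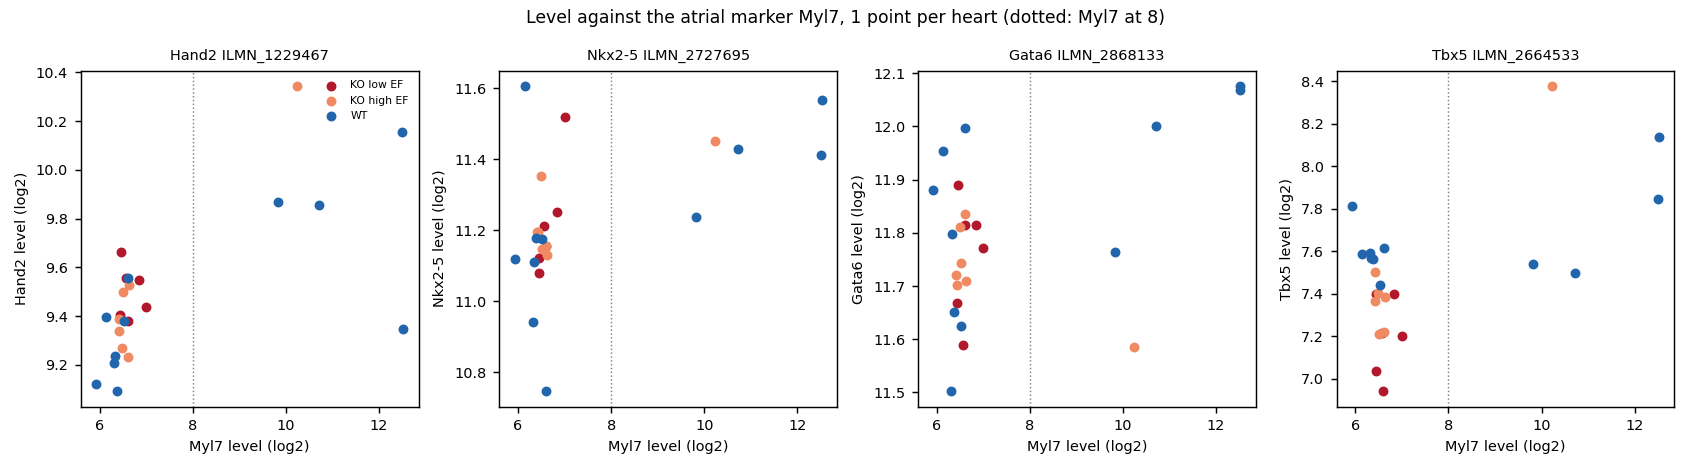
Normalized log2 level (y axis) of Hand2, Nkx2-5, Gata6 ILMN_2868133 and Tbx5 ILMN_2664533 against that of the atrial marker Myl7 (x axis), 1 point per heart, coloured by group. The dotted line marks Myl7 at 8; 1 KO high EF heart and 4 WT hearts lie to its right.

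How far probes of 1 gene moved together was described by the correlation of their residuals from the group means over the 23 arrays without KO high EF replicate 11. The 2 bright Mef2a probes had r = 0.71, which became -0.26 with replicate 11 included. Mef2c ILMN_2732465 and ILMN_2887992 had r = 0.70, and Tbx20 ILMN_1260194 and ILMN_2601336 had r = 0.62. The Gata6 pair (r = 0.07) and the Srf pair (r = -0.15) hardly moved together, so values of these genes are tied to the probe named. On the same measure, the named genes most like each member's brightest probe were Prkaa2 (r = 0.87), Nup88 (0.85) and Gkap1 (0.76) for Mef2a, Pgm5 (0.77), Znrf2 (0.74) and Rasa1 (0.74) for Mef2c, and Polr3a (0.76), Rnf114 (0.71) and Nde1 (0.69) for Mef2d. For Srf they were Stk40 (0.84), Mrps34 (0.80) and Khsrp (0.78).

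For Gata4 they were Mmp15 (0.82), Osbpl3 (0.77) and Cirbp (0.77), and for Gata6 Selenot (0.75), Gm18956 (0.75) and Hbp1 (0.75). Nkx2-5 was most like Coq5 (0.76), Lcmt1 (0.73) and Adprhl1 (0.73), and Tbx20 most like Khdrbs1 (0.75), Golim4 (0.74) and Clic4 (0.73). Among the genes most like Tbx5 were Itga6 (0.67) and Luc7l3 (0.64). Hand2 was most like Tax1bp3 (0.69), the atrial light chain Myl4 (0.69) and Dkk3 (0.67). These are the highest values among many genes compared, and how high they would run by chance was not tested. Many of these values did not hold with all 24 arrays: Prkaa2 with Mef2a gave r = -0.09, and Stk40 with Srf gave -0.34.

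Partner and target genes of the factors were described from lists, 1 probe per gene, the brightest kept one, without a test of the list as a whole. Over all kept probes, 24.4% were called in KO low EF (12.3% lower) and 14.4% in KO high EF hearts (5.9% lower). Without KO high EF replicate 11 the shares in either direction were 33.8% and 19%. All list counts below are to be read beside these shares. KO low EF and KO high EF share the WT hearts they are set against, and the fibroblast and macrophage markers given above rose in both, with 7 and 8 higher of 10 for fibroblasts and 8 and 8 of 9 for macrophages. MEF2 relatives, class II histone deacetylases and CaM kinases had 1 higher and 4 lower of 12 kept genes in KO low EF hearts (1 and 5 without KO high EF replicate 11), and 1 higher and 3 lower in KO high EF hearts (0 and 5 without replicate 11). The histone deacetylase Hdac4, which represses MEF2, fell by 0.75 in KO low EF and by 0.56 in KO high EF hearts (limma adjusted p = 0.000238 and 0.00592). Camk2b, a subunit of CaM kinase II, fell by 1.22 and by 0.82 in the same groups (adjusted p = 2.17e-07 and 8.33e-05). The coactivator Ppargc1a, which drives mitochondrial genes, fell by 0.88 and by 0.45 (adjusted p = 3.39e-08 and 0.000407), and Mef2b rose by 0.35 and by 0.32 (adjusted p = 0.0166 and 0.0361). The Mef2b rise in KO high EF hearts was 0.21 and not called without replicate 11 (adjusted p = 0.0668).

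GATA relatives and cofactors had 0 higher and 3 lower of 8 kept genes in KO low EF hearts (1 and 3 without replicate 11), and 0 higher and 2 lower in KO high EF hearts (0 and 3). Hopx, a homeodomain-only protein that restrains SRF, differed by -1.27 ± 0.15 in KO low EF (limma adjusted p = 2.62e-07) and by -0.31 ± 0.14 in KO high EF hearts (adjusted p = 0.145; -0.40 and 0.0288 without replicate 11), and the KO groups differed from each other (-0.96, adjusted p = 0.00221). Zfpm2, the GATA4 partner FOG2, fell by 0.37 in KO low EF and by 0.33 in KO high EF hearts (adjusted p = 0.00127 and 0.00476), and Gata2 fell by 0.34 and by 0.26 (adjusted p = 0.00521 and 0.0367). Crebbp, a histone acetyltransferase, was not called (-0.16 and -0.17).

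T-box, HAND and homeobox relatives had 0 higher and 3 lower of 17 kept genes in KO low EF hearts (0 and 5 without replicate 11), and 0 higher and 1 lower in KO high EF hearts (0 and 3). The Iroquois factors Irx3 and Irx5, which shape ventricular conduction and repolarization in mice, fell by 0.50 and by 0.52 in KO low EF hearts (limma adjusted p = 0.00764 and 0.00633), and differed by -0.24 and -0.38 in KO high EF hearts (adjusted p = 0.245 and 0.0576; Irx5 was called without replicate 11, adjusted p = 0.0476). Tbx3, a T-box repressor of the conduction system, differed by -0.56 ± 0.32 in KO low EF and by -0.94 ± 0.31 in KO high EF hearts (adjusted p = 0.241 and 0.0406). Without replicate 11 the Tbx3 differences were -0.57 and -0.48, both called (adjusted p = 2.2e-05 and 0.000514). Tbx2 differed by -0.17 and -0.24, neither called.

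SRF cofactors and TEAD factors had 1 higher and 1 lower of 12 kept genes in KO low EF hearts (2 and 1 without replicate 11), and 1 higher and 0 lower in KO high EF hearts (1 and 1). Smyd1, a muscle methyltransferase, fell by 0.76 in KO low EF hearts (limma adjusted p = 3.85e-06) and differed by -0.27 in KO high EF hearts (adjusted p = 0.0729; -0.33 and 0.0136 without replicate 11). Mrtfa, an actin-regulated SRF coactivator, rose by 0.25 and by 0.24 (adjusted p = 0.0111 and 0.0149), while Myocd, myocardin itself, differed by -0.21 and -0.20 and Elk3 by 0.14 and 0.06, none called. Among NFAT and other stress factors, 4 were higher and 1 lower of 15 in KO low EF hearts (4 and 2 without replicate 11), and 3 higher and 1 lower in KO high EF hearts (1 and 3 without replicate 11). Runx1 rose by 0.78 and by 0.50 (adjusted p = 6.16e-05 and 0.00726), Nfatc4 by 0.53 and by 0.43 (adjusted p = 0.00760 and 0.0381) and Myc by 0.34 and by 0.31 (adjusted p = 0.0168 and 0.0408), and Klf15, a restraint on hypertrophic genes, fell by 0.64 and by 0.34 (adjusted p = 0.000139 and 0.0384). In KO high EF hearts without replicate 11, Nfatc4 and Myc were not called (adjusted p = 0.0508 and 0.0831).

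Textbook target genes of the members went both ways, with 10 higher and 6 lower of 31 kept genes in KO low EF hearts (10 and 6 without replicate 11), and 8 higher and 4 lower in KO high EF hearts (7 and 5). The shares of all kept probes called with all arrays were 24.4% and 14.4%. Nppb, the natriuretic peptide and a GATA4 target, rose by 1.32 in KO low EF and by 1.20 in KO high EF hearts (limma adjusted p = 3.32e-06 and 2.21e-05). Xirp2, a MEF2A target at the intercalated disc, rose by 1.49 and by 0.77 (adjusted p = 3.65e-08 and 0.000431). Hrc, a calcium-binding protein of the sarcoplasmic reticulum under MEF2 control, fell by 1.35 and by 0.60 (adjusted p = 2.44e-09 and 0.000323), and Ryr2, its calcium release channel, fell by 0.50 and by 0.33 (adjusted p = 4.74e-06 and 0.000912). Medians of these lists over KO low EF minus WT lay between -0.20 for the T-box and the MEF2 lists and 0.11 for the stress factors, against -0.01 over all kept probes.

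**Figure D5:**
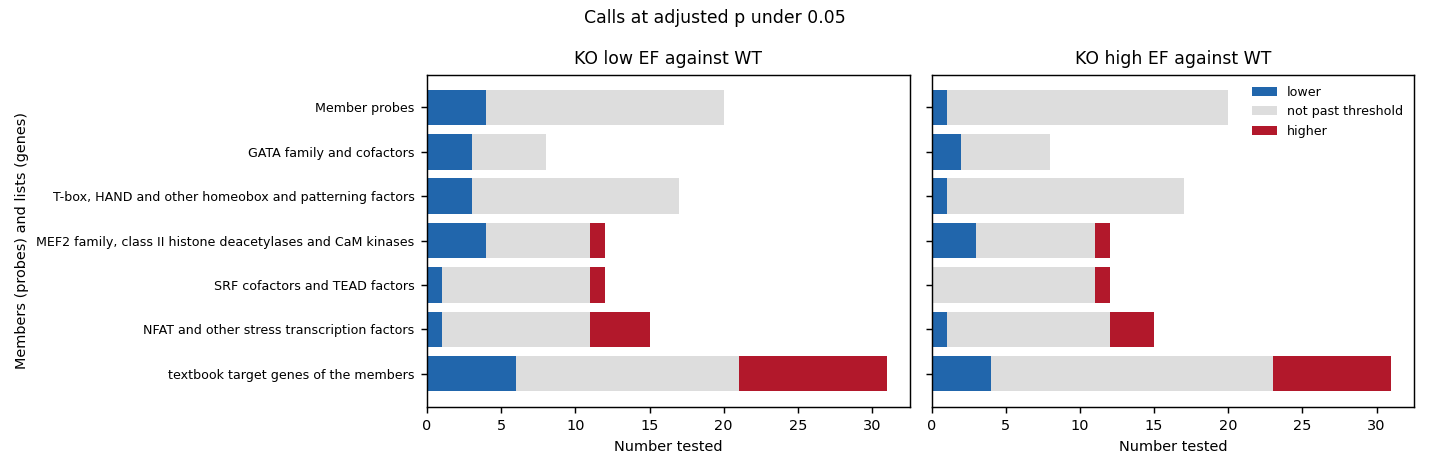
Number of members or list genes tested (x axis) that were lower, not past the threshold or higher at adjusted p under 0.05, for KO low EF against WT (left) and KO high EF against WT (right). Member probes had 4 lower at left and 1 at right and none higher, and the textbook targets had 10 higher and 6 lower at left. Over all kept probes, 24.4% were called at left and 14.4% at right.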

How the data were processed

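Left ventricular RNA of 24 mice was measured on Illumina mouse arrays. The authors deposited non-normalized bead intensities, 1 per probe and array, and the submitters' processing notes name BeadStudio and R 2.8.0. The authors also deposited normalized log2 values by a method not given in the sources used here, which served as an alternative. Their deposited summary table holds group means and SDs, and p-values over the 3 groups from an unstated test. The means and SDs served here only to match its 45281 rows to the probes. The Mef2a probe names and the authors' p-values were assigned through that match.

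From the intensities, background was corrected by normexp (offset 50), and log2 values were quantile-normalized (limma 3.58.1, R 4.3.3). Probes that exceeded the array median on 6 or more arrays were fitted with 3 group means or with slopes on EF per 10 points, and limma's p was adjusted over every kept probe by the Benjamini-Hochberg method (threshold 0.05). The fit was tested on simulated data. Nothing in the labels says that hearts of a group were more than separate samples, so p-values measure the spread between them, and the number of arrays limits precision.

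The members, lists and alternatives were chosen with earlier results of these data known. All member probes are named. Of each list, up to 4 genes with the smallest p in all KO against WT are named on their brightest kept probe. For likeness, the 3 genes with the highest correlation to a member's brightest probe are named, among probes averaging at least 8. One gene that this rule names is not reported here. Marker lists covered cardiomyocytes, atrial cells, fibroblasts, macrophages, endothelium (0 of 10 called against WT in either KO group), smooth muscle (2 higher of 7 in KO low EF, 1 in KO high EF) and epicardium (1 higher of 3 in each). Chips were read from the labels as 4 chips of 6 arrays. Alternatives changed normalization, background, filter, batch, age, array weights, the arrays fitted and the replicate block. Replicate numbers were not used to pair the samples in the main fit. Of 11 pairs, 2 had a correlation of deviations over 0.1, which cannot exclude a pairing.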

Additional observations from a re-analysis of the deposited data

Results flagged for a closer look

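In 44 groups of member probe values, 10 held a heart whose gap to its nearest neighbour was large for the group's range (Dixon's test), and chance marks about 1 in 20 such groups. KO high EF replicate 11 accounted for 7 of the 10. Its level was 5.92 on Gata4 ILMN_2817903 (nearest heart 8.29), 5.98 on Mef2a ILMN_1248647 (8.28) and 5.85 on Tbx20 ILMN_2601336 (8.17), which are low. It was 8.39 on Mef2c ILMN_1214950 (8.05), 8.38 on Tbx5 ILMN_2664533 (7.50), 10.34 on Hand2 ILMN_1229467 (9.53) and 9.59 on Srf ILMN_1242533 (8.78), which are high. The other 3 were KO high EF replicate 7 at 6.91 on Mef2a ILMN_1221253 (7.08), KO low EF replicate 6 at 6.36 on Tbx20 ILMN_1260194 (7.67) and KO low EF replicate 4 at 11.31 on Srf ILMN_2988299 (11.64). All 10 are KO hearts. The 44 groups do not cover all 22 probes in all 3 groups, so the list does not show that no WT heart was outlying.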

How the results depend on the processing

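With each array left out in turn, 4 to 5 member probes were called in KO low EF against WT, 1 to 6 in KO high EF against WT, 0 to 1 in KO low EF against KO high EF, 4 to 8 in all KO against WT and 1 to 1 for the slope within KO. In KO low EF against WT, 4 calls became 2 with the chip as a block, while lower calls over all probes went from 3136 to 2637. In KO high EF against WT, 1 call became 2 on the authors' normalized table, 2 with the chip as a block, 2 with age as a covariate, 5 with array weights and 0 with the replicate block. Over all probes, the 1501 lower calls became 1664, 1363, 1624, 2663 and 516 in the same order. Array weights gave 1 call between the KO groups, against 0. Over all probes they gave 894 higher and 1083 lower calls there, against 743 in either direction. In all KO against WT, 6 calls became 3 with the chip block and 3 under median scaling. Over all probes, the 3118 lower calls became 2760 and 1766. Whether member counts moved apart from counts over all probes was not tested. The 1 slope call became 0 under median scaling, 0 with the chip as a block, 0 with the replicate block, 0 with only KO hearts in the fit and 2 with array weights. Of alternatives added after seeing the data, leaving out KO high EF replicate 11 gave 5 calls in KO high EF against WT together with the chip block and 2 with median scaling, and 0 slope calls with either, and leaving out the 5 arrays with Myl7 above 8 gave 6 calls in KO high EF against WT. The direction turned, with a call, for Tbx20 ILMN_2601336 in all KO against WT (0.28 with the chip block and without replicate 11, against -0.07) and for the slope of Mef2a ILMN_1248647 (0.10 with array weights, against -0.03). The cause was not tested. Mef2a ILMN_1251160 and Mef2c ILMN_1214950 in KO low EF against WT passed in 38 of 38 alternatives. With the replicate block 5, 0, 0, 6 and 0 members were called in the 5 comparisons in the order first given (1 of the first 5, Tbx20 ILMN_1260194, was higher), and the Mef2c ILMN_1214950 call in KO high EF was lost (adjusted p = 0.114). Over all probes, calls in KO low EF against WT were 3026 higher and 1537 lower under median scaling, against 3069 and 3136. Probes near the array median, 1 of Mef2c and 1 of Tbx5 among those not kept, give little signal over background. The same limit holds for kept probes near it, among them Mef2c ILMN_1220270 and, in WT hearts, Tbx20 ILMN_1224706. Tbx5 ILMN_2664533 also lay not far above it in KO low EF hearts, at 6.94 to 7.40.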
